A study of Mus musculus with 2 samples.

Results

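The genes described here are 44 genes of cholesterol and fatty acid metabolism, taken by symbol from the 24354 genes for which the authors deposited FPKM, a fragment count scaled to transcript length and library size. They comprise 31 sterol genes, which make, sense, move or store cholesterol, and 13 fatty acid genes, which build, lengthen or desaturate fatty acids. All 44 were measured, and the list does not hold every enzyme of either pathway. The values come from 2 libraries of poly(A) RNA from mouse embryonic stem cells (ESCs) differentiated toward mesoderm, 1 of control cells (Diff–CONT) and 1 of inducible Ino80 knockout cells (Diff–iKO). Ino80 encodes the ATPase of a chromatin remodeling complex. Both ESC lines came from blastocysts homozygous for the floxed Ino80 allele, and only the knockout line also carried ROSA26-CreER, a Cre recombinase that 4-hydroxytamoxifen (4-OHTM) activates. In the labels the control genotype reads WT. Both cultures formed embryoid bodies in medium with 8% serum replacement and were attached on day 4. From the next day they were kept for 7 days in medium with 15% fetal bovine serum, BMP4 and 0.5 µM 4-OHTM. Each condition is 1 culture of 1 line, so line, culture and genotype cannot be told apart, and no difference below has a replicate check or a p-value.

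Animal cells make cholesterol from acetyl-CoA. The mevalonate arm builds isoprene units, and the squalene and sterol arm joins them and folds them into sterol rings. Transcription of these enzymes is driven by SREBP proteins, which the escort protein SCAP carries out of the endoplasmic reticulum when sterol is low and which INSIG proteins hold back when sterol is high. SREBP-2, from Srebf2, acts mainly on cholesterol genes, while SREBP-1, from Srebf1, acts more on fatty acid genes. The LXR nuclear receptors respond to oxidized sterols and raise the cholesterol exporters ABCA1 and ABCG1. Fatty acids are made by acetyl-CoA carboxylase and fatty acid synthase, lengthened by elongases of the ELOVL family, and given double bonds by the SCD and FADS desaturases.

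Of the sterol synthesis enzymes, 17 of 18 had a lower FPKM in the library labelled Diff–iKO than in the library labelled Diff–CONT, with a median log2 ratio of -0.51. Of all genes with an FPKM averaging 1 or more, 50.7% were lower. All 4 desaturases were lower too, with log2 ratios between -0.89 and -0.67. The 4 member genes of the LXR receptors and sterol exporters were higher, and fatty acid synthesis genes and elongases were mixed. Most differences were below 2-fold, and only 4 of the 44 genes were past the 2-fold cut-off described below, where 15.1% of all genes that could pass it did.

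SREBP proteins bind a short element in promoters and work there with NF-Y, a factor that binds CCAAT. The stretches of promoter below were chosen after matches and values were seen. Hmgcs1 and Acat2 are shown for their sterol element letters, Mvk and Msmo1 for repeated CCAAT matches, Insig1 as a gene with both kinds of match, and Ebp and Abca1 as genes that were higher. They are RefSeq sequences of build GRCm38.p6, written 5′ to 3′ in the direction of the gene. Capitals mark matches, on either strand, to CCAAT or to CACNCCAC, the core letters of a sterol regulatory element, where N is any base. Each stretch lies wholly upstream of the RefSeq start. For Msmo1 the annotations differ. Its GENCODE gene runs from 64718139 to 64733792 on the minus strand, so the stretch shown lies inside that gene. Hmgcs1, which was lower, is given over 165 bases (chr13:119690156-119690320 on the plus strand).
Hmgcs1: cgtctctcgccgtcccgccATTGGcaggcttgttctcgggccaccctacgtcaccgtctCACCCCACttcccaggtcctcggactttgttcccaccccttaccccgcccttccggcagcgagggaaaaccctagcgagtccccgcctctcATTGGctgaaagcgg
Acat2, also lower, is given over 160 bases (chr17:12960761-12960920 on the minus strand).
Acat2: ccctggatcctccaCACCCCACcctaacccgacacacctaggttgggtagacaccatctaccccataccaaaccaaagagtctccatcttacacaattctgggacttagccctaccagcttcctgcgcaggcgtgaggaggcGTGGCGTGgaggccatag
Mvk, lower, is given over 185 bases (chr5:114444084-114444268 on the plus strand).
Mvk: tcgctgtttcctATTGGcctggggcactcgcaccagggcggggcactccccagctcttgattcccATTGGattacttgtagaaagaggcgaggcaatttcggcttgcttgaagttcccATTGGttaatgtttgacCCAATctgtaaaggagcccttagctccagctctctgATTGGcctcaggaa
Msmo1, lower, is given over 130 bases (chr8:64733619-64733748 on the minus strand).
Msmo1: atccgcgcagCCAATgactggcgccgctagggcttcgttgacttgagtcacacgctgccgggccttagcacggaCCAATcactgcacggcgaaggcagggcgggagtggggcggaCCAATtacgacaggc
Insig1, lower, is given over 135 bases (chr5:28071187-28071321 on the plus strand).
Insig1: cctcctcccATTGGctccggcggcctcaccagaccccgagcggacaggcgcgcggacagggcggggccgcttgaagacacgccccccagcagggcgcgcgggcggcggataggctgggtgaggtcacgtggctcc
Ebp, the sterol synthesis enzyme that was higher, is given over 140 bases (chrX:8193553-8193692 on the minus strand).
Ebp: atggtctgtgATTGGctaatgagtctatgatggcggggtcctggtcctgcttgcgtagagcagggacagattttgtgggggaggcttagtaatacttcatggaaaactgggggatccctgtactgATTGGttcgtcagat
Abca1, an LXR-driven exporter that was higher, is given over 135 bases (chr4:53159926-53160060 on the minus strand).
Abca1: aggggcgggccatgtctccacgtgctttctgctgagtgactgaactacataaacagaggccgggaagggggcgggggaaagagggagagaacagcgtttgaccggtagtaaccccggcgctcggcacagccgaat

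Of the 44 genes, 35 had a promoter in the RefSeq set, which runs from 250 bases before to 50 bases after each start, and the 9 others are Fdps, Fdft1, Sqle, Stard4, Npc1, Abcg1, Scd1, Scd2 and Fads1. CCAAT or its reverse ATTGG was present in 14 of 15 sterol synthesis enzymes, and Acat2 was the exception. It was present in 6 of 10 other sterol genes and in 6 of 10 fatty acid genes, against 41.1% of all 27025 genes with a promoter and 43.2% of those with an FPKM averaging 1 or more. The 4 ATTGG matches of the Mvk promoter lie 53 bases apart each, and Mvk holds 1 further match on the other strand. Ebp, the enzyme that was higher, holds 2 matches. Since 14 of the 15 enzymes hold a match, its presence could not be compared between higher and lower enzymes. CACNCCAC or its reverse GTGGNGTG was present in 4 of the 35 genes, namely Hmgcs1, Acat2, Insig1 and Elovl7, against 7.12% of all genes and 7.83% of those with an FPKM averaging 1 or more. Acat2 holds 2 such matches, and that of Insig1 lies outside the stretch shown. The longer form TCACNCCAC (reverse GTGGNGTGA) was found in Hmgcs1 only, against 1.44% of all genes, and it overlaps the shorter match there. The palindrome CACGTG, an E-box that SREBP proteins can also bind, was present in 7 of the 35 genes (Abca1, Dhcr7, Elovl5, Hsd17b7, Insig1, Sc5d and Scap) against 8.09% of all genes and 11.8% of those with an FPKM averaging 1 or more. The DR4 element, which LXR binds, was searched only as an exact direct repeat with 4 free bases between the repeats. That exact form matched none of the 35 promoters and 4 of all 27025 genes. Imperfect forms were not searched, so this count does not show that any promoter, that of Abca1 included, lacks an LXR element. All matches above are counts of letters in a short window and are not binding data.

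About 27604301 fragments lay on genes in the CONT-labelled library and 21469567 in the iKO-labelled library, as estimated from the steps in low FPKM values. For each log2 ratio, a 95% interval was set from the recovered fragments by the Clopper-Pearson method. It reflects counting error alone, since variation between cultures was not measured. Ino80 itself measured 8.90 and 10.3 FPKM, with a log2 ratio of 0.21 (0.11 to 0.31). The whole-gene value was not lower under the knockout label, but it does not separate the floxed part of the gene from the rest and so is no test of the label in either direction. Directions are given by the labels, and every pair of FPKM values below gives the CONT-labelled library first and the iKO-labelled library second.

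The mevalonate arm was lower throughout. Its 7 genes had log2 ratios between -1.18 and -0.53 (median -0.56), each with a counting interval below 0. Among all 13145 genes with an FPKM averaging 1 or more, 50.7% had a log2 ratio under 0 and the median was -0.01, with quartiles of -0.41 and 0.35. Hmgcs1, the HMG-CoA synthase gene at positions 119690379 to 119708260 of chromosome 13 (build GRCm38, as for all positions here), measured 83.7 FPKM in the CONT-labelled library and 37.1 in the iKO-labelled library, which is 2.26-fold lower. The log2 ratio was -1.18 with an interval of -1.24 to -1.11, and 6.45% of all genes had a lower ratio. Acat2, which makes acetoacetyl-CoA in the cytosol, was 34.9 and 18.4, and its interval of -1.04 to -0.81 reaches the cut-off of -1. Mvd, which decarboxylates mevalonate diphosphate, was 23.2 and 13.1, a log2 ratio of -0.82 (interval -0.99 to -0.67).

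The other 4 mevalonate genes had nearly the same ratio. Mvk and Pmvk, the kinases that phosphorylate mevalonate in turn, were 14.2 and 9.67 and 32.6 and 22.5, at log2 ratios of -0.55 and -0.53. Idi1, an isomerase of isoprene units, was 5.26 and 3.56 (-0.56), and Fdps, which joins them into farnesyl diphosphate, was 91.8 and 63.6 (-0.53). Their intervals overlap one another, so counting error does not place them in an order. Summed over the 7 genes, FPKM was 286 in the CONT-labelled library and 168 in the iKO-labelled library. Hmgcs1 made up 29.3% of that sum in the first library and 22.1% in the second, and Fdps was the largest part in both, at 32.1% and 37.9%.

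In the squalene and sterol arm 10 of 11 genes were lower, by less than in the mevalonate arm, with a median log2 ratio of -0.25. Lss, which folds squalene epoxide into lanosterol, had FPKM values of 13.2 and 8.38 (log2 ratio -0.66, interval -0.78 to -0.54). Cyp51, the lanosterol demethylase, was 32.1 and 22.2 (-0.53). Msmo1 and Nsdhl, which remove the methyl groups at carbon 4 of the ring with Hsd17b7, were 57.4 and 41.1 (-0.48) and 17.2 and 12.8 (-0.42). Tm7sf2, a sterol reductase, was 10.6 and 7.61 (-0.48). These 5 genes, Lss among them, form the lower end of the arm.

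The other lower genes of the arm differed less. Fdft1, squalene synthase, was 25.8 and 21.7 (log2 ratio -0.25, interval -0.34 to -0.16), and Sqle, squalene epoxidase, was 50.6 and 45.05 (-0.17, interval -0.24 to -0.09). Hsd17b7 was 5.92 and 5.14 (-0.21). Dhcr7, the final reductase of the route to cholesterol, was 34.7 and 32.5 (-0.09, interval -0.18 to -0.01). Sc5d, the sterol C5 desaturase, was 27.1 and 26.0, and its interval of -0.13 to 0.01 includes 0.

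Ebp, the sterol isomerase gene on the X chromosome from 8185329 to 8193512, went the other way. Its FPKM was 14.0 in the CONT-labelled library and 27.0 in the iKO-labelled library, a log2 ratio of 0.95 (interval 0.81 to 1.10), just short of 2-fold, and 92.4% of all genes had a lower ratio. Nsdhl, the other X-linked enzyme among the 18, was lower. Ebp made up 4.84% of the summed FPKM of its arm in the first library and 10.8% in the second. The sum over the 11 genes was 289 and 249.6, a log2 ratio of -0.21.

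**Figure D1:**
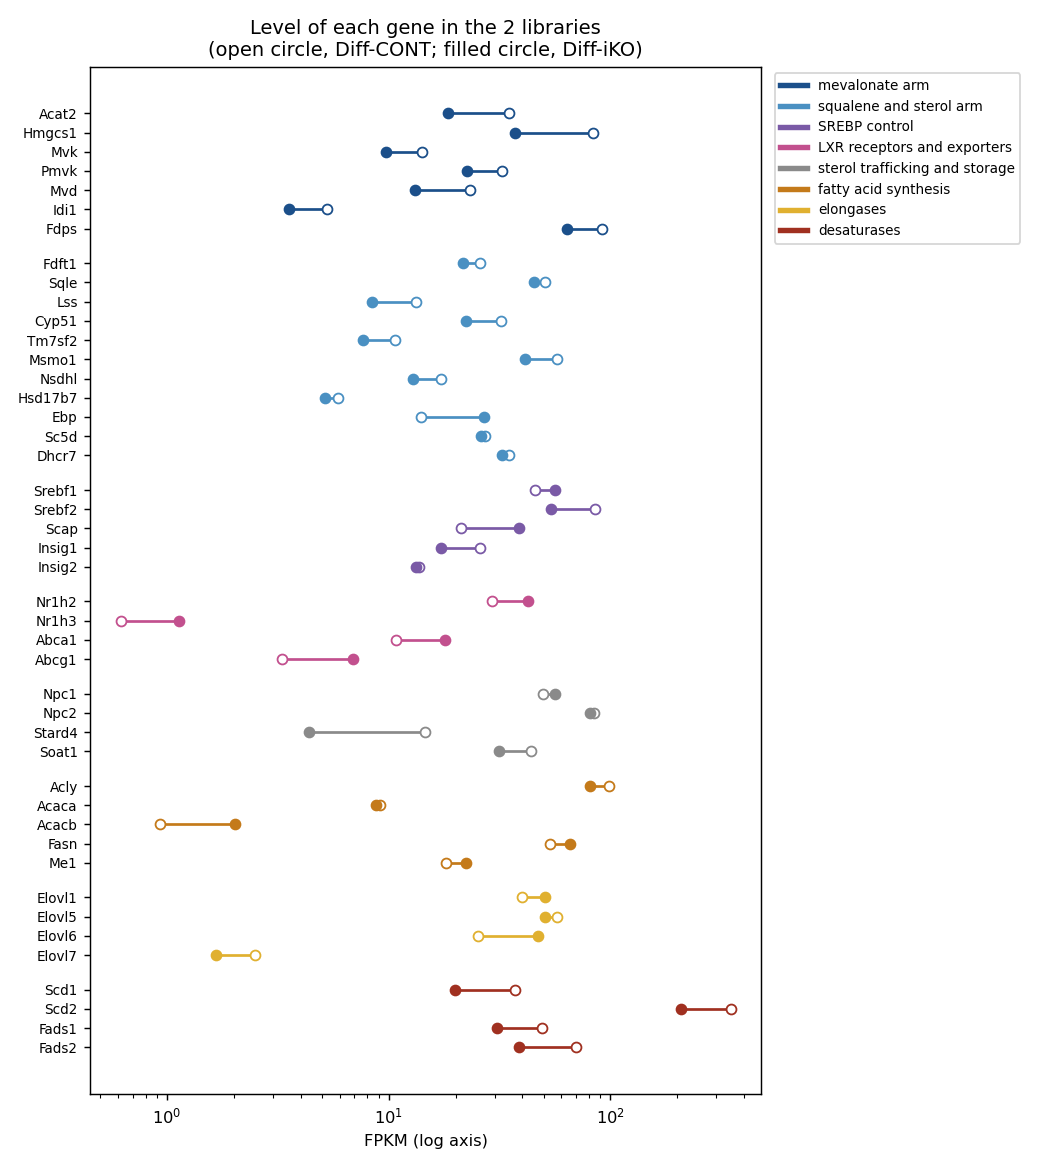
FPKM of each of the 44 genes (log axis) in the CONT-labelled library (open circles) and the iKO-labelled library (filled circles), coloured by gene group, 1 library each and so no error bars. All 7 mevalonate genes and all 4 desaturases sit further left in the iKO-labelled library, while Ebp, Scap, Abca1, Abcg1 and Elovl6 sit further right.

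Genes that control SREBP differed among themselves, with a median log2 ratio of -0.04 over 5 genes. Srebf2, at positions 82147181 to 82205379 of chromosome 15, measured 84.9 FPKM in the CONT-labelled library and 53.8 in the iKO-labelled library, a log2 ratio of -0.66 (interval -0.70 to -0.61). Srebf1 was 45.8 and 56.4, a log2 ratio of 0.30 (interval 0.25 to 0.36). Within a library, where no scaling between libraries enters, Srebf2 stood at 1.85 times Srebf1 in the CONT-labelled library and at 0.95 times Srebf1 in the other, so the order of the pair was turned. FPKM per gene does not separate the Srebf1 isoforms, which start at different promoters.

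Insig1, an SREBP target as well as a brake on it, was 25.7 and 17.2 (log2 ratio -0.58, interval -0.69 to -0.47). Insig2, the related gene that SREBP does not drive in the same way, was 13.6 and 13.3, and its interval of -0.36 to 0.28 includes 0. The interval of Insig2 is wide because its shortest transcript, of 674 nucleotides, was used to estimate its fragments. Scap was higher, at 21.25 and 38.7 (log2 ratio 0.87, interval 0.79 to 0.94). Insig1 stood at 1.21 times Scap in the CONT-labelled library and at 0.44 times in the iKO-labelled library.

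All 4 members of the LXR group were higher in the iKO-labelled library. Of 10 further oxysterol and LXR-linked genes, described below, 8 were lower, 5 of them with a counting interval below 0. Abcg1, at positions 31057675 to 31117988 of chromosome 17, measured 3.29 FPKM in the CONT-labelled library and 6.89 in the iKO-labelled library, 2.09-fold higher. The log2 ratio was 1.07, and the interval of 0.91 to 1.22 spans a 2-fold difference. Abca1, the exporter that passes cholesterol to lipid-poor acceptors, was 10.8 and 17.9 (0.73, interval 0.66 to 0.80). Nr1h2, which encodes the widely expressed LXR beta, was 29.2 and 42.5 (0.54, interval 0.44 to 0.64). Nr1h3, which encodes LXR alpha, was 0.619 and 1.14, on 29 and 39 fragments (0.88, interval 0.12 to 1.60), and stayed under the FPKM minimum of 2 in both libraries. LXR alpha was thus the low receptor of the pair in both libraries, with Nr1h2 at 47.1 times its level in the first and 37.3 times in the second.

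Of the 4 genes that move and store sterol, Stard4 differed most, and it had the lowest log2 ratio of the 44 genes. Stard4, which encodes a cytosolic sterol carrier and is a known SREBP target, had an FPKM of 14.6 in the CONT-labelled library and 4.35 in the iKO-labelled library, 3.36-fold lower. The log2 ratio was -1.75 with an interval of -1.89 to -1.60, and 2.87% of all genes had a lower ratio. Soat1, which esterifies cholesterol for storage, was 43.9 and 31.5 (-0.48, interval -0.52 to -0.43). Npc1 and Npc2, which pass cholesterol out of lysosomes, differed little and in opposite directions, at 49.7 and 56.1 (0.18, interval 0.13 to 0.23) and at 84.5 and 80.5 (-0.07, interval -0.12 to -0.02). Npc1 stood at 3.40 times Stard4 in the CONT-labelled library and at 12.9 times in the other.

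Fatty acid synthesis genes did not share a direction. Acly, which supplies cytosolic acetyl-CoA to both pathways, was 98.2 and 80.5 (log2 ratio -0.29, interval -0.33 to -0.24). Acaca, the main acetyl-CoA carboxylase, was 9.17 and 8.76, and its interval of -0.16 to 0.02 includes 0. Fasn, fatty acid synthase, was slightly higher at 53.5 and 65.8 (0.30, interval 0.27 to 0.33), and Me1, a source of NADPH, was 18.1 and 22.4 (0.31). Acacb, the carboxylase whose product restrains fatty acid oxidation, was 0.931 and 2.03, on 232 and 376 fragments. The log2 ratio was 1.13 with an interval of 0.88 to 1.37, and its FPKM only just reached the minimum. The summed FPKM of the 5 genes was 179.9 in one library and 179.6 in the other.

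The elongases were split as well. Elovl6, which extends palmitate to stearate, was higher at 25.2 and 47.01 (log2 ratio 0.90, interval 0.84 to 0.96). Elovl1, which acts on very long saturated chains, was 40.02 and 50.9 (0.35). Elovl5, which acts on polyunsaturated chains, was 57.1 and 50.8 (-0.17), and Elovl7 was low at 2.49 and 1.66 (-0.59, interval -0.89 to -0.30). As a part of the summed FPKM of the 4 elongases, Elovl6 went from 20.2% to 31.3% and Elovl5 from 45.7% to 33.8%.

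The 4 desaturases among the members were lower together and by similar amounts, which does not hold for all desaturase genes. Fads3, near Fads1 and Fads2 on chromosome 19, was higher at 7.74 and 10.3 (log2 ratio 0.41, interval 0.27 to 0.55), and Scd3, at 0.162 and 0.611, was higher but under the FPKM minimum. Scd2, the stearoyl-CoA desaturase of embryonic and neural tissue, was the most abundant of the 44 genes in both libraries, at an FPKM of 348 in the CONT-labelled library and 208 in the iKO-labelled library (log2 ratio -0.75, interval -0.77 to -0.72). Scd1, in the same cluster of Scd genes on chromosome 19, was 37.0 and 19.98 (-0.89, interval -0.96 to -0.81). Fads1 and Fads2, the neighbouring genes of the delta-5 and delta-6 desaturases on the same chromosome, were 49.2 and 30.9 (-0.67, interval -0.75 to -0.60) and 69.6 and 38.5 (-0.85, interval -0.92 to -0.79). Scd2 made up 69.1% and 69.9% of the summed FPKM of the 4 genes, so their makeup was nearly the same in both libraries while the sum went from 504 to 297. Scd1 and Scd2 are close paralogs, and how the authors' counting split fragments shared by them is not stated. In the CONT-labelled library Elovl6 stood at 0.68 times Scd1, and in the iKO-labelled library at 2.35 times.

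**Figure D2:**
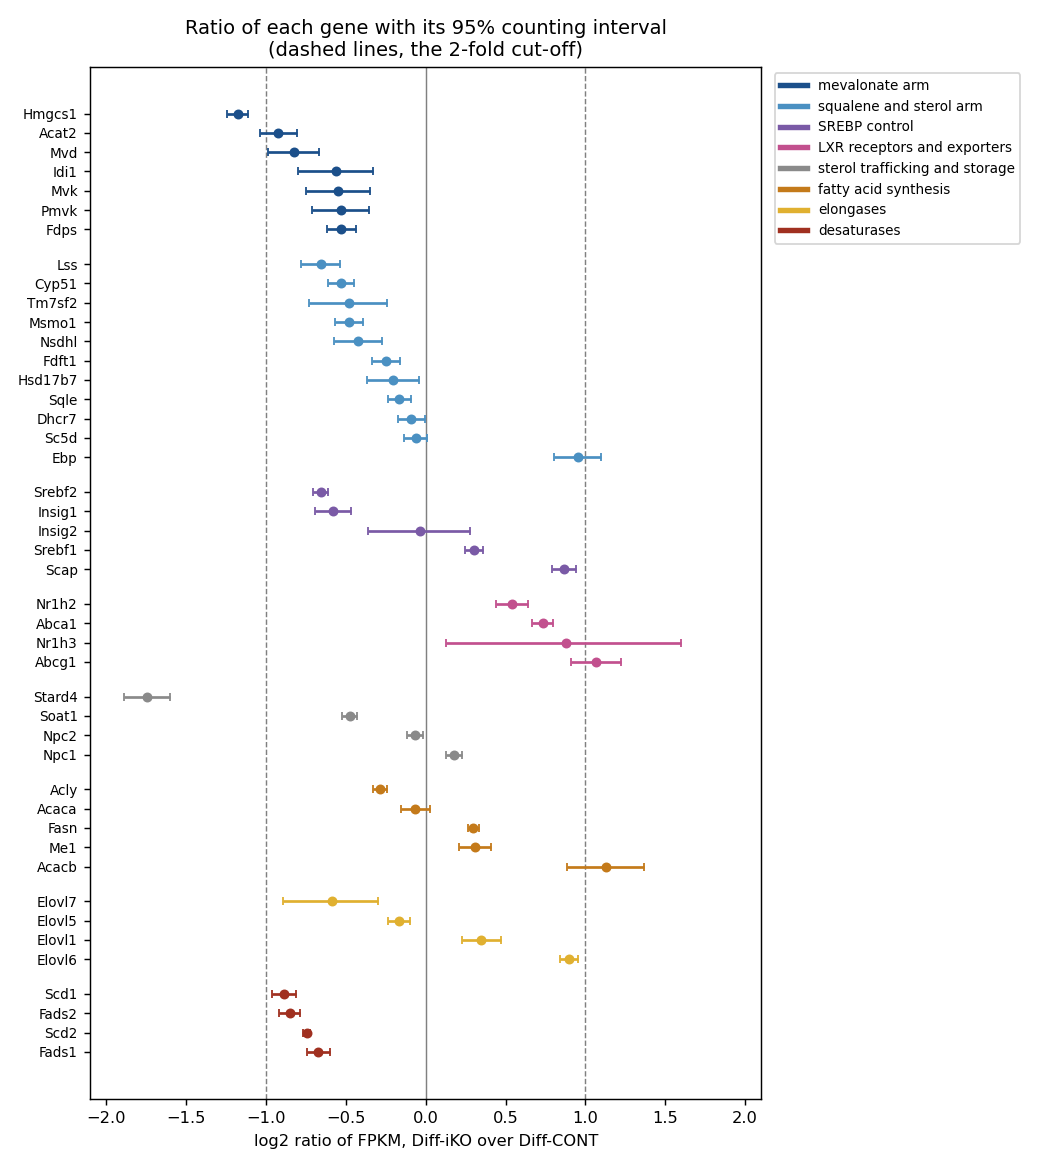
Log2 ratio of FPKM of each gene, library labelled Diff–iKO over library labelled Diff–CONT, with its exact 95% counting interval (bars) and the 2-fold cut-off (dashed lines). Hmgcs1 and Stard4 lie wholly past the cut-off on the left, and the intervals of Abcg1, Acacb, Ebp and Nr1h3 cross it on the right, as that of Acat2 does on the left.

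A gene counted as past the cut-off when its fold change was at least 2 and its FPKM at least 2 in 1 or both libraries. The study's methods give these limits but not in how many libraries the FPKM limit must be met, and requiring both leaves Acacb out. Of the 44 genes, 43 reached the FPKM minimum, with Nr1h3 as the exception. Past the cut-off and lower were 2 genes, Stard4 and Hmgcs1, where 8.39% of all 12376 genes that reached the minimum were lower. Past the cut-off and higher were also 2 genes, Abcg1 and Acacb, where 6.73% of all genes were higher. By this count the 44 genes did not stand out from the background. Nearest the cut-off lay Abcg1 at 1.07 inside it and, outside it, Ebp at 0.95 and Acat2 at -0.92. With 1 added to each FPKM, Abcg1 was at 0.88 and Acacb at 0.65, and neither was past the cut-off. Neither was past it with both libraries scaled to the same sum, Abcg1 at 0.97 and Acacb at 1.03 but with its FPKM then under the minimum. Under that scaling 3 genes were past it and lower, Stard4, Hmgcs1 and Acat2 (-1.02).

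At a fold of 1.5 with the same FPKM minimum, 11 of the 44 genes were lower, where 17.6% of all genes were, and 6 were higher, where 14.9% were. The lower genes were 4 sterol synthesis enzymes, all 4 desaturases, Srebf2, Stard4 and Elovl7, and the higher genes were Ebp, Scap, Abca1, Abcg1, Acacb and Elovl6. For the direction alone, 31 of the 43 genes with an FPKM averaging 1 or more had a log2 ratio under 0 and 12 above it, where 49.3% of all genes were above. The sterol genes had a median log2 ratio of -0.45 over 30 genes and the fatty acid genes -0.17 over 13 genes. The counting interval lay below 0 for 21 of the 30 sterol genes and 7 of the 13 fatty acid genes, against 38.8% of the genes with an FPKM averaging 1 or more and a transcript length. It lay above 0 for 12 of the 43, against 37.6% of the same genes. At this depth counting error is small, so most of the 43 members, and most of the 12639 genes with such an interval, differed beyond it. The medians of the 2 classes were not tested against each other, since genes are not replicates of a condition.

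**Figure D3:**
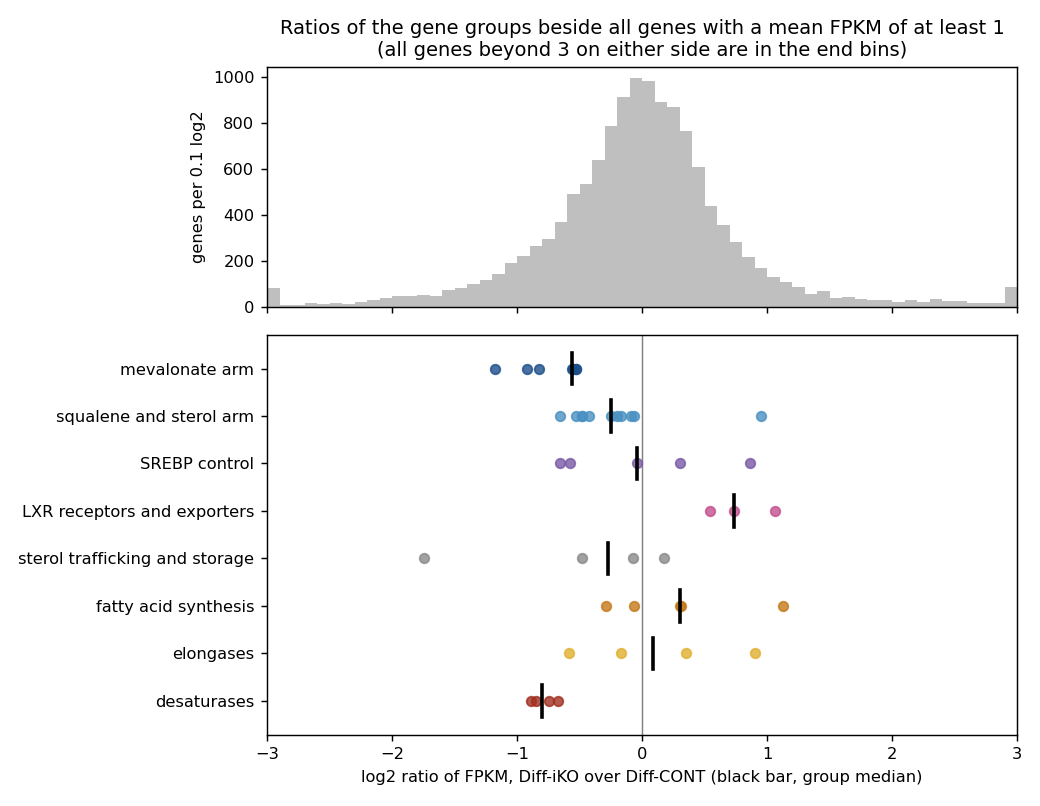
Upper panel, histogram of the log2 ratios of all genes with an FPKM averaging 1 or more; lower panel, the ratio of each of the 43 members that reach that mean (points) and the median (black bar) of each of the 8 groups on the same axis. The medians of the mevalonate arm (-0.56) and the desaturases (-0.80) lie left of 0 and that of the LXR group (0.73, over 3 genes) lies right of it.

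Measured by summed FPKM, the 31 sterol genes went from 1002 to 838 (log2 ratio -0.26) and the 13 fatty acid genes from 809 to 627 (-0.37). The second difference rests on the desaturases, because the 9 fatty acid synthesis genes and elongases summed to 305 in the CONT-labelled library and 329.9 in the iKO-labelled library. The 18 sterol synthesis enzymes summed to 574 and 417 (-0.46).

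**Figure D4:**
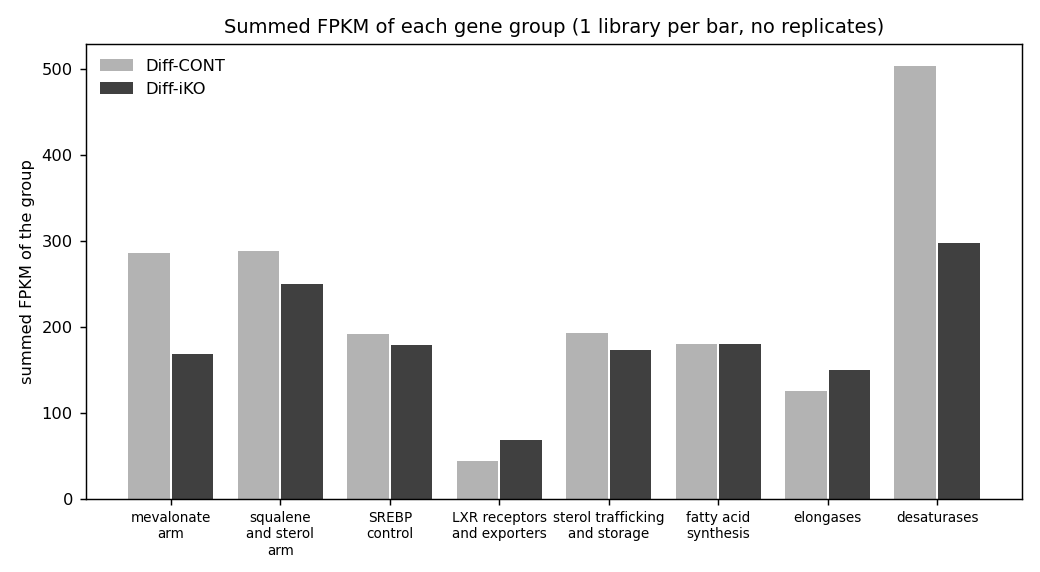
Summed FPKM of each gene group in the CONT-labelled library (grey) and the iKO-labelled library (black), from 0, with 1 library per bar and no error bars. The desaturase bar drops from 504 to 297 and the mevalonate bar from 286 to 168, while the fatty acid synthesis bars are level near 180 (179.9 and 179.6).

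Further genes of these pathways were read from 7 lists of 93 genes, and directions are counted over those with an FPKM averaging 1 or more. Of these, 83 reached the FPKM minimum, 7 were past the cut-off and higher, and 4 were past it and lower, against the same 6.73% and 8.39% of all genes. A list of other genes of sterol synthesis, its electron supply and other isoprenoid branches had 9 of 11 higher. It holds genes that make no sterol, namely Pdss1 and Pdss2 of coenzyme Q, Dhdds and Nus1 of dolichol and Ggps1 of geranylgeranyl diphosphate, so its count is not set against that of the 18 enzymes. Por, the reductase that feeds electrons to Cyp51 and Sqle, was 49.8 and 103 (log2 ratio 1.04, interval 0.98 to 1.10), and Pdss1 was 3.17 and 6.67 (1.07). Cyb5r3, an electron donor for lipid desaturation, was 128 and 183 (0.51). Genes of SREBP processing and INSIG turnover were higher for 7 of 9. Mbtps1, the first protease that cuts SREBP, was 87.1 and 109 (0.32), Tmem97 was 32.9 and 52.4 (0.67), and Ubxn8 was 3.013 and 6.87 and past the cut-off.

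Genes of sterol uptake, trafficking and ester storage were lower for 10 of 14. Soat2, the sterol acyltransferase of liver and intestine, was 8.09 and 1.56 (log2 ratio -2.37, interval -2.76 to -2.02), and Vldlr, a lipoprotein receptor, was 13.9 and 3.72 (-1.90, interval -2.08 to -1.72). Nceh1, an ester hydrolase, was higher at 3.36 and 7.94 (1.24), and Lrp1 (81.7 and 80.2) and Gramd1a (50.1 and 59.6) were not past the cut-off. Of the 10 oxysterol and LXR-linked genes 8 were lower and 2 higher, with a median log2 ratio of -0.16, the opposite direction to the 4 LXR members. None was past the cut-off. The counting interval lay below 0 for 5 of the 10 genes, above 0 for 2 and included 0 for 3. Their most abundant members were Lpcat3 (36.7 and 44.5) and Ncor1 (38.1 and 32.9). Abcg4, an exporter related to Abcg1, was 2.30 and 1.39 (-0.73, interval -1.05 to -0.41). Mylip, an LXR target in the uptake list, was 8.13 and 4.70 (-0.79, interval -0.99 to -0.59).

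On the fatty acid side, genes of supply, activation and esterification were lower for 12 of 18. Acsl3, an acyl-CoA synthetase, was 68.7 and 40.1 (log2 ratio -0.78), and Slc25a1, the mitochondrial citrate carrier, was 50.3 and 45.8. Past the cut-off were Gpat3, higher at 3.52 and 7.72, and Prkaa2, an AMPK subunit, lower at 3.77 and 1.72. Of the elongation cycle and other desaturase genes, 7 of 10 were higher, among them Degs1 (89.6 and 142, log2 ratio 0.67) and Fads6 (1.52 and 3.09, past the cut-off), while Tecr was level at 199.997 and 193. Among 14 fatty acid oxidation genes 9 were higher. Cpt1a, which admits fatty acids to mitochondria, was 9.21 and 25.4 (1.47, interval 1.36 to 1.57), and Echs1 was lower at 44.6 and 21.7 (-1.04, interval -1.17 to -0.91). Cpt1c was 41.5 and 61.7, and Hadh was 51.8 and 48.8.

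Markers of several cell types moved between the libraries along with these genes. All 8 markers of undifferentiated ESCs were higher in the iKO-labelled library, with a summed FPKM of 446 in the CONT-labelled library and 2849 in the iKO-labelled library. Of 10 markers of visceral endoderm and yolk sac, cells that secrete lipoproteins, 9 were lower and the sum went from 310 to 22.2, with none at 0. Cardiomyocyte markers summed to 57.1 and 12.6, with the cardiac troponin T gene Tnnt2 at 14.7 and 4.17. Endothelial markers summed to 77.3 and 78.1, but 7 of 8 were lower and the sum was level only through Pecam1, at 16.2 and 53.9. Trophoblast markers summed to 85.8 and 77.2, and 6 of the 8 at an FPKM averaging 1 or more were higher. Neural markers summed to 151 and 161, although 5 of the 7 at that mean were lower (median log2 ratio -0.42). The part of these shifts in the sterol and desaturase values was not tested, and in bulk RNA fewer cells of a type and less RNA per cell cannot be told apart. Adipocyte markers were low in both libraries, with a sum of 5.70 and 7.06. Lep was listed at 0 in both, and Plin1 and Cfd were listed at 0 in the CONT-labelled library. Of the macrophage markers C1qa was listed at 0 in both libraries, Adgre1 and Ptprc were at most 0.0734, and 2 of 8 reached the FPKM minimum. The sum went from 15.3 to 40.2 through those 2, Csf1r (2.91 and 12.8) and Cd68 (10.5 and 27.1), while Mrc1 (0.785 and 0.087), Lyz2 (0.497 and 0.0511), Fcer1g (0.565 and 0.188) and Ptprc were lower.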

How the data were processed

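Poly(A) RNA of 1 Diff–CONT and 1 Diff–iKO culture was sequenced, with libraries made from 1 µg of total RNA by a stranded kit. The authors deposited FPKM values, made, per the submitters' processing notes and methods, with STAR 2.7.9a on mm10 and with Cuffquant and Cuffnorm of Cufflinks 2.2.1. The gene annotation and strand setting are not given in the sources used here. There were 0 other value columns. Members, gene lists and alternatives were chosen with earlier results of these data known. All 44 members are named, and of the wider lists every gene past the cut-off and the 2 most abundant of each list; Abcg4, Mylip, Fads3, Scd3 and single marker genes were named after their values were seen.

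The log2 ratio of FPKM was taken without a pseudocount. The cut-off was a fold of at least 2 and an FPKM of at least 2 in 1 or both libraries. Medians left out genes whose mean FPKM was under 1. Fragments were recovered from FPKM steps, using 10487 single-transcript genes of 1000 nucleotides or more in RefSeq; 87.1% and 86.6% of low values lay within 0.2 of a whole multiple, against 40% by chance. Where a gene has several transcripts, its fragments are an approximation from the shortest. Positions are from GENCODE vM21 (GRCm38), promoters from RefSeq. The steps were tested on simulated data. Of the wider genes, 3 were matched by an older symbol. Calculations ran in Python 3.11.15 (pandas 2.3.3, numpy 2.4.6), intervals in scipy 1.17.1 and plots in matplotlib 3.10.9. ChIP-seq, flow cytometry and protein data were not analysed here.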

Additional observations from a re-analysis of the deposited data

How the results depend on the processing

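With 1 library per condition, no replicate could be left out. No paired analysis was possible because each group has 1 library. No gene symbol was repeated, so summing rows of one symbol was not run. The log2 ratio of all 44 genes kept its sign with 0.1 or 1 added to each FPKM and under the 3 other scalings, which shifted all ratios by -0.09, -0.01 and 0.02. With 1 added, 0 of the 44 genes were past the cut-off upward (0 sterol and 0 fatty acid genes) and 3 of the wider genes were. With both libraries scaled to the same sum, 0 members (0 sterol, 0 fatty acid) and 4 wider genes were past it upward, 3 members were past it downward, the fatty acid median was -0.26 and the log2 ratio of the fatty acid sum was -0.46. With a mean FPKM of at least 5 in place of the FPKM minimum, 1 member, 0 fatty acid genes and 4 wider genes were past it upward and 2 wider genes downward. With FPKM of at least 2 required in both libraries, 1 member and 0 fatty acid genes were past it upward, and with a fold of at least 4, 0 genes of either class were past it in either direction. With a fold of at least 1.5, 6 members were higher (4 sterol, 2 fatty acid) and 11 lower (6 sterol, 5 fatty acid). In each case the cause is the changed limit, offset or scale itself. Depth limits Nr1h3 most, with 29 and 39 fragments.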
